A study of Arabidopsis thaliana with 9 samples.

Results

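The salicylic acid defence genes described here are 10 Arabidopsis thaliana genes, PR1, PR2, PR5, PCC1, EDS1, PAD4, SID2, NPR1, WRKY70 and FRK1. They are 10 of the 34262 rows of the mRNA count table and were found there by their locus identifiers. The genes were chosen by function, but with earlier results of these libraries known, among them the high PR2 level in 1 homozygous library and the low PCC1 level in heterozygous siliques. The set is thus in part selected on mRNA levels in these same 6 libraries, and its values are given as a description.

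Salicylic acid is a plant hormone that accumulates when biotrophic pathogens are recognised. Most of it is made from chorismate through isochorismate, and the protein EDS1 with its partner PAD4 relays signals from immune receptors and reinforces this synthesis. The hormone is sensed by NPR1 and its relatives, and NPR1 works with TGA transcription factors to switch on WRKY factors and the secreted pathogenesis-related (PR) proteins. These genes are best known from leaves, where the PR genes are low until infection.

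The tissue was whole siliques, the seed-bearing fruits, taken 1 to 5 days after pollination from the Columbia-0 accession. Each of 3 genotypes gave 2 biological samples per the series design text, for 6 mRNA libraries: ago3-3 homozygotes, with both copies of the small RNA-binding protein gene ARGONAUTE 3 (AGO3) mutated, ago3-3 heterozygotes, and wild type. The other 3 libraries held small RNA (sRNA), 1 each: sRNA recovered with tagged AGO3 from ago3-3 plants carrying pAGO3:FHA-AGO3, sRNA from a control FLAG immunoprecipitation in wild-type siliques, and total wild-type sRNA. Whole siliques mix fruit wall, seed coat, endosperm and embryo, and the labels do not say whether a sample pooled several plants. In such samples fewer cells of a type and less RNA per cell cannot be told apart.

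The mRNA libraries held 30338400 to 36259000 estimated counts, and levels below are TMM-scaled counts-per-million values (CPM). A count of 3, the most that a count of 0 allows, corresponded to 0.0827 to 0.0989 CPM. AGO3 followed the labels, at 2.11 and 3.29 CPM in the homozygotes, 12.6 and 12 CPM in the heterozygotes and 30.4 and 17.6 CPM in the wild type. The 7 silique wall and ovule markers summed to 480 to 529 CPM in every library. The 5 rosette leaf and root markers summed to 5.75 to 7.22 CPM, with GL1 and EXP7 at 0 throughout. Nearly all of the latter sum came from TRY, at 5.56 to 7.16 CPM. Homozygous replicate 2 and wild-type replicate 1 stood apart from the rest on the first principal component (36.1% of the variance), at 51.6 and 55.6, while the other 4 libraries lay between -29.8 and -22.2.

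SID2 (AT1G74710) encodes isochorismate synthase, the enzyme that commits chorismate to salicylic acid in stressed leaves. Its level was 10.03 and 12.4 CPM in the homozygotes, 7.33 and 10.2 CPM in the heterozygotes and 9.51 and 6.91 CPM in the wild type (replicates 1 and 2 in this and the following sentences). Both homozygous libraries lay above both wild-type ones, and the heterozygous libraries overlapped with each of the other genotypes. The log2 difference between homozygous and wild-type siliques was 0.45 ± 0.24 (SE), and that between heterozygous and wild-type siliques 0.09 ± 0.24 (SE).

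EDS1 (AT3G48090) and PAD4 (AT3G52430) encode lipase-like proteins that bind each other. EDS1 was at 9.52 and 15.3 CPM in the homozygotes, 8.82 and 14.6 CPM in the heterozygotes and 18.5 and 9.63 CPM in the wild type. Each genotype thus had 1 low and 1 high library, and the 3 genotypes overlapped. A neighbouring second EDS1 gene, AT3G48080, held 0.676 CPM or less in every library, and 2 of the 6 EDS1 values were not whole numbers, as when a read is divided among genes.

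PAD4 was at 1.79 and 2.73 CPM in the homozygotes, 1.31 and 0.536 CPM in the heterozygotes and 2.27 and 0.895 CPM in the wild type, from 19 to 89 counts. Both homozygous libraries were above both heterozygous ones, with wild type spread across both. PAD4 differed by a log2 of 1.29 ± 0.60 (SE) between homozygous and heterozygous siliques, and by 0.50 ± 0.58 (SE) between homozygous and wild-type siliques.

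NPR1 (AT1G64280), the salicylic acid receptor and transcriptional coactivator, varied least between libraries of a genotype. It stood at 17.6 and 20.7 CPM in the homozygotes, 18.1 and 17.7 CPM in the heterozygotes and 24.5 and 21.3 CPM in the wild type. Wild type was the highest genotype, and its libraries overlapped with neither of the others. The log2 difference from wild type was -0.26 ± 0.14 (SE) in homozygous and -0.36 ± 0.14 (SE) in heterozygous siliques. These comparisons share the wild-type libraries.

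WRKY70 (AT3G56400), a transcription factor that acts downstream of NPR1 and represses jasmonate responses, was at 3.36 and 5.81 CPM in the homozygotes, 2.28 and 1.61 CPM in the heterozygotes and 4.94 and 1.86 CPM in the wild type. Homozygous replicate 2 and wild-type replicate 1 were highest, and both heterozygous libraries were below both homozygous ones. The log2 difference between homozygous and heterozygous siliques was 1.24 ± 0.49 (SE).

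The 3 PR genes encode secreted proteins and are the usual readout of the pathway. PR1 (AT2G14610), a small cysteine-rich protein and the standard marker of salicylic acid signalling, had 30 counts (0.922 CPM) in homozygous replicate 2, 2 counts in heterozygous replicate 2 and 0 in the other 4 libraries. With 10 counts or more in only 1 library, PR1 did not pass the filter on low counts, so the tested set is 9 of the 10 genes. Homozygous replicate 2 was at least 10.3-fold above homozygous replicate 1, taking 3 counts for the 0.

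PR2 (AT3G57260), a beta-1,3-glucanase, had 506 counts (15.5 CPM) in homozygous replicate 2 and 13 counts (0.387 CPM) in homozygous replicate 1. Both heterozygous libraries held 13 counts, at 0.371 and 0.367 CPM, and the wild-type libraries held 43 counts (1.16 CPM) and 2 counts (0.0716 CPM). A single library therefore set the homozygous mean of 7.97 CPM ± 10.7 (SD, n = 2). The fitted log2 difference between homozygous and wild-type siliques was 3.61 ± 1.46 (SE), and it was -0.71 without homozygous replicate 2. The related glucanase genes BG3 and BG1 differed in the opposite direction over genotypes, by -0.49 ± 0.22 (SE) and -0.44 ± 0.32 (SE). BG3 stood at 334 and 490 CPM in the homozygotes, 419 and 362 CPM in the heterozygotes and 661 and 496 CPM in the wild type.

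PR5 (AT1G75040), a thaumatin-like protein, was at 3.69 and 9.77 CPM in the homozygotes, 5.11 and 1.66 CPM in the heterozygotes and 6.05 and 2.15 CPM in the wild type. All 3 genotypes overlapped, and within each of them the libraries differed by a ratio of 2.65 to 3.07. PR5 differed by a log2 of 0.70 ± 0.68 (SE) between homozygous and wild-type siliques and of -0.29 ± 0.69 (SE) between heterozygous and wild-type siliques.

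PCC1 (AT3G22231), a small protein gene named for its control by pathogens and the circadian clock, had a different pattern. It stood at 25.7 and 23.9 CPM in the homozygotes, 4.05 and 5.05 CPM in the heterozygotes and 28.2 and 10.1 CPM in the wild type. The heterozygous libraries were the lowest, below both libraries of each other genotype, and homozygous libraries lay within the wild-type range. Homozygous siliques exceeded heterozygous ones by a log2 of 2.45 ± 0.43 (SE), 5.45-fold, and heterozygous minus wild-type siliques gave -2.08 ± 0.43 (SE), 4.22-fold lower. Homozygous minus wild-type siliques gave 0.37 ± 0.40 (SE).

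AT3G22235, a neighbouring gene in the same series of locus numbers, ran beside PCC1 at 14.2 and 14.3 CPM in the homozygotes, 3.68 and 4.62 CPM in the heterozygotes and 17.3 and 8.16 CPM in the wild type. The next gene, AT3G22240, did not share the low heterozygous level, at 14.8 and 18.6 CPM, 14.8 and 18.0 CPM and 19.2 and 9.70 CPM, respectively. Values that were not whole numbers made up 5 of 6 for PCC1, 6 of 6 for AT3G22235 and 5 of 6 for AT3G22240, and the part of divided reads in the likeness was not tested.

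FRK1 (AT2G19190), a receptor-like kinase gene induced by bacterial flagellin and used as a marker of pattern-triggered immunity, was close to the limit of detection. It had 22 and 23 counts in the homozygotes, 13 and 0 in the heterozygotes and 13 and 15 in the wild type. These are 0.655 and 0.707 CPM, 0.371 and 0 CPM, and 0.351 and 0.537 CPM. Both homozygous libraries were above the rest, by 7 or more counts, and the log2 difference from wild type was 0.62 ± 1.01 (SE).

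**Figure D1:**
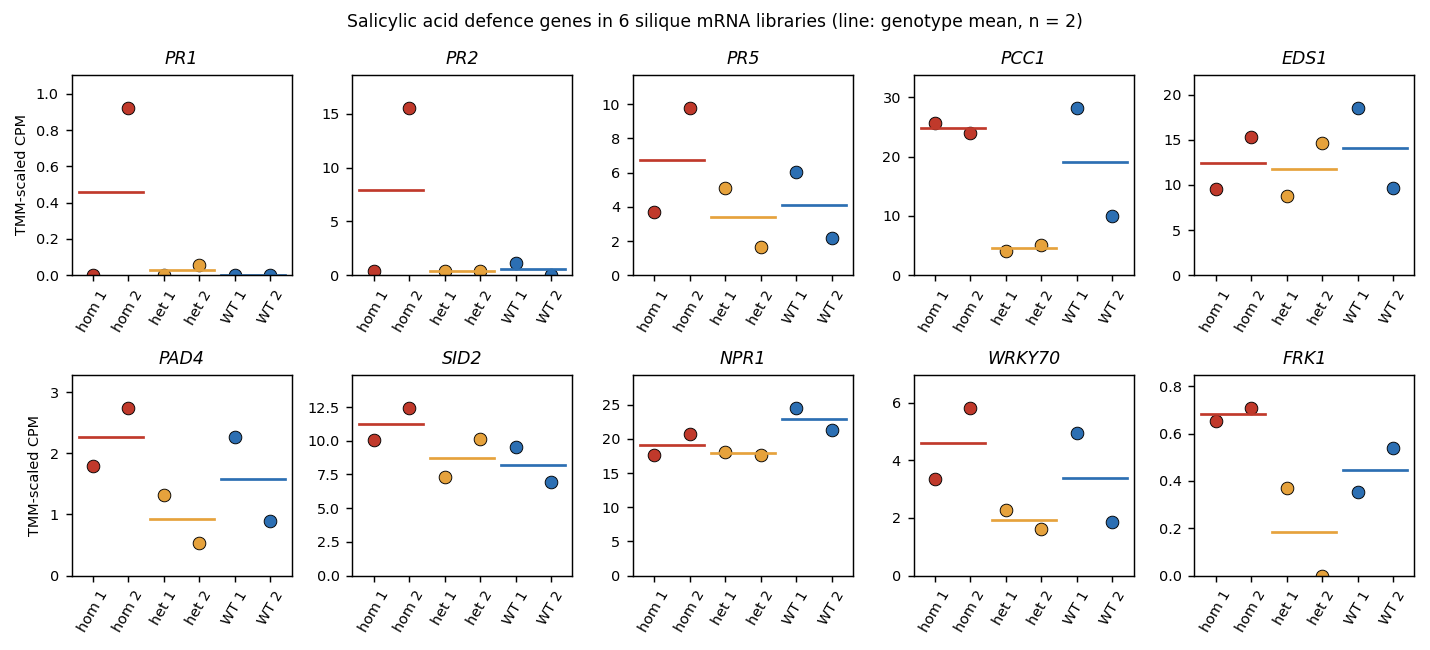
Level of each of the 10 genes (vertical axis, TMM-scaled CPM from 0, a scale of its own in each panel) in the 6 mRNA libraries (horizontal axis; hom, homozygous; het, heterozygous; WT, wild type). Points are libraries and lines are means of 2 libraries; PR2 reaches 15.5 CPM in homozygous replicate 2 and at most 1.16 CPM elsewhere, and PCC1 is lowest in both heterozygous libraries.

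Homozygous and wild-type siliques were compared to ask what differs when AGO3 is mutated. Of the 9 tested genes 7 were higher and 2, EDS1 and NPR1, lower in homozygous siliques, with a median log2 difference of 0.45 beside 0.01 over all 22702 tested genes. The genotypes did not overlap for 3 of the 10 genes: SID2 and FRK1 were higher in both homozygous libraries, a pattern of 16.8% of tested genes, and NPR1 was lower in both, a pattern of 17.3%. In edgeR's quasi-likelihood test adjusted over all tested genes (Benjamini-Hochberg, threshold 0.05) 0 of the 9 were called, where 0.0% of all tested genes were called. At an unadjusted p under 0.05 edgeR gave 1 of the 9, PR2, and 1293 of all tested genes. DESeq2 called 0.465% of the genes to which it gave an adjusted p. It gave one to 5 of the 10 (PR5, PCC1, EDS1, SID2 and NPR1) and called 0 of these.

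The median of the 9 changed with the libraries used. Without homozygous replicate 2 it was -0.03, with 4 genes higher and 5 lower, and without wild-type replicate 2 it was -0.01. Without wild-type replicate 1 it was 1.30, with 8 higher and 1 lower. With homozygous replicate 2 and wild-type replicate 1 both left out it was 0.78, with 7 higher and 2 lower.

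The comparison of heterozygous with wild-type siliques concerns plants with 1 mutant copy. Here 8 of the 9 tested genes were lower and 1, SID2, higher, with a median log2 difference of -0.79 beside -0.00 over all tested genes. PCC1 and NPR1 were lower in both heterozygous libraries, as were 17.8% of tested genes, and 0 of the 10 were higher in both, against 16.4%. edgeR called 0 of the 9 and 0.0% of all tested genes; at an unadjusted p under 0.05 there were 2 of the 9, PCC1 and NPR1, and 1006 of all. DESeq2 called 0.235% of genes with an adjusted p, but gave none of the 10 an adjusted p. Without wild-type replicate 1 the split turned to 6 higher and 3 lower, with a median of 0.06.

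The last comparison was between both ago3-3 genotypes. All 9 tested genes were higher in homozygous siliques, with a median log2 difference of 1.24 beside 0.01 over all tested genes. PR2, PCC1, PAD4, WRKY70 and FRK1 were higher in both homozygous libraries, 5 of 10, beside 15.7% of tested genes, and 0 were lower in both, beside 14.9%. PR2 is among the 5 through depth scaling only. Homozygous replicate 1 and both heterozygous libraries held 13 counts each, at 0.387, 0.371 and 0.367 CPM. edgeR called 0 of the 9 and 0.0% of all tested genes; at an unadjusted p under 0.05 there were 3 of the 9 (PR2, PCC1 and WRKY70) and 745 of all. DESeq2 called 0.111% of genes with an adjusted p, which it gave to 8 of the 10. PCC1 was the 1 called among these (adjusted p = 0.0447), which was known when the genes were chosen. Without homozygous replicate 2 the median was 0.20, with 7 higher and 2 lower, whereas PCC1 kept a log2 difference of 2.28 to 2.61 over all 13 alternatives. This comparison shares its libraries with the previous ones.

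**Figure D2:**
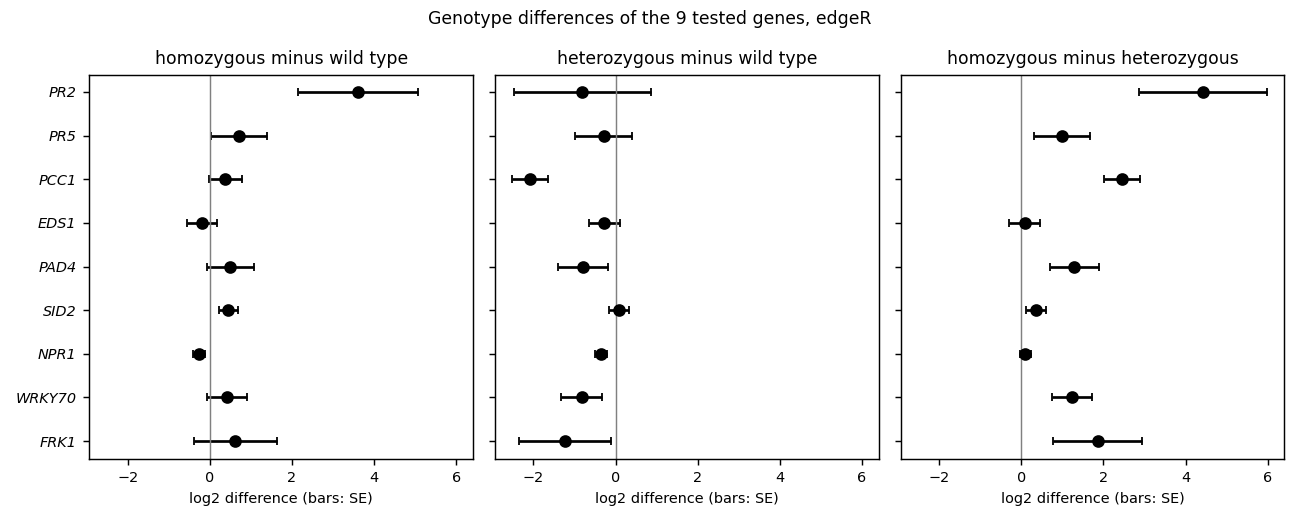
Log2 difference (horizontal axis) with its SE (bars) for the 9 tested genes (rows) in the 3 genotype comparisons (panels), from edgeR over 6 libraries. PR2 has the widest bars, with an SE of 1.46 to 1.66, and PCC1 lies at -2.08 for heterozygous minus wild type and 2.45 for homozygous minus heterozygous.

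The pooled SD of log2 CPM within genotypes ran from 0.124 for NPR1 to 2.65 for PR2. Homozygous replicate 2 was the highest library for 7 of the 10 genes (PR1, PR2, PR5, PAD4, SID2, WRKY70 and FRK1), where it was the highest for 18.2% of tested genes. Wild-type replicate 1 was the highest for the other 3 (PCC1, EDS1 and NPR1), beside 19.7% of tested genes. Those libraries were the 2 highest for PR2, PR5, EDS1, PAD4 and WRKY70, 5 of 10 genes, as they were for 10.6% of tested genes.

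Set directly against each other, homozygous replicate 2 exceeded homozygous replicate 1 in 8 of the 9 tested genes, with a median log2 ratio of 0.61. At least 2-fold higher were PR2 (40.2-fold, exact binomial 95% interval 23.3 to 76.0, counting error only) and PR5 (2.65-fold, 2.14 to 3.28), beside 3.69% of all tested genes; 0 were at least 2-fold lower, beside 3.72%. PCC1 did not share the difference, at a ratio of 0.933 (0.846 to 1.03).

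Wild-type replicate 1 exceeded wild-type replicate 2 also in 8 of the 9, with a median log2 ratio of 1.33. At least 2-fold higher were 5 genes, beside 3.96% of all tested genes: PR2 (16.2-fold, interval 4.23 to 138), PR5 (2.82-fold), PCC1 (2.80-fold), WRKY70 (2.66-fold) and PAD4 (2.54-fold). None was at least 2-fold lower, beside 4.7% of tested genes. Between the heterozygous libraries the genes were split: replicate 1 was at least 2-fold above replicate 2 for PR5 (3.07-fold), PAD4 (2.45-fold) and FRK1 (13 counts against 0), beside 2.21% of tested genes. It was below replicate 2 for EDS1 (ratio 0.602), SID2 (0.722) and PCC1 (0.803). At least 2-fold below were 0 of the 9, beside 3.13% of tested genes. With 1 library on each side these ratios carry no test, and the direction in which each was formed was chosen after the values were seen.

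**Figure D3:**
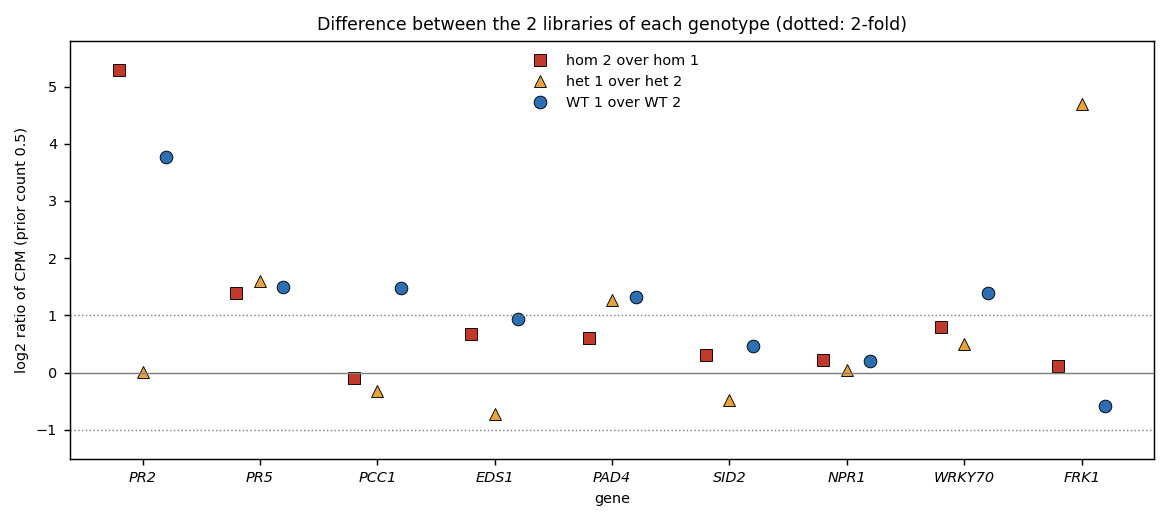
Log2 ratio of CPM between the 2 libraries of each genotype (vertical axis, prior count 0.5) for the 9 tested genes (horizontal axis). Squares are homozygous replicate 2 over 1, triangles heterozygous replicate 1 over 2 and circles wild-type replicate 1 over 2; dotted lines mark 2-fold, and PR2 is at 5.28 and 3.77 in homozygous and wild type. The FRK1 triangle rests on 13 counts against 0.

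Wider parts of the pathway were followed in 7 lists that hold 75 further genes, of which 65 were tested. Over these, 45 were higher and 20 lower in homozygous than in wild-type siliques (median log2 difference 0.10), 18 higher and 47 lower in heterozygous than in wild-type siliques (-0.16), and 56 higher and 9 lower in homozygous than in heterozygous siliques (0.18). Of all tested genes, 51.7%, 49.4% and 51.7% were higher in the same comparisons. edgeR called 0 in each comparison, and DESeq2 called 0 of those to which it gave an adjusted p. At an unadjusted p under 0.05 in edgeR there were 0, 4 and 8 of the 65, beside 1293, 1006 and 745 of the 22702 tested genes. Without homozygous replicate 2 the first split became 22 higher and 43 lower and the last 37 higher and 28 lower, and with wild-type replicate 1 left out as well the first became 34 higher and 31 lower. Without wild-type replicate 1 the second became 32 higher and 33 lower.

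Among the 13 tested genes of salicylic acid synthesis and modification, 10 were higher and 3 lower in homozygous than in wild-type siliques. DMR6, a hydroxylase that inactivates salicylic acid, was at 18.7 and 32.7 CPM in the homozygotes, 8.56 and 13.3 CPM in the heterozygotes and 28.3 and 9.59 CPM in the wild type. As for PR5 and WRKY70, its highest levels were in homozygous replicate 2 and wild-type replicate 1. MES9, at 1.30 ± 0.71 (log2, SE) between homozygous and wild-type siliques, was highest in heterozygous replicate 2 (2.68 CPM). Its lowest level was in wild-type replicate 1 (0.324 CPM). UGT76B1, at 0.54 ± 0.54 (log2, SE), had 1.22 CPM in wild-type replicate 1 and 1.43 CPM in wild-type replicate 2. ICS2, the other isochorismate synthase gene, differed by 0.45 ± 0.24 (log2, SE) between homozygous and wild-type siliques, the same as SID2 to 2 decimals.

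The genes of salicylic acid output and systemic resistance had 7 of 9 tested genes higher and 2 lower in homozygous than in wild-type siliques (median 0.38). ACD6, a membrane protein that promotes salicylic acid signalling, was at 2.17 and 11.6 CPM in the homozygotes, 0.685 and 0.423 CPM in the heterozygotes and 6.54 and 1.15 CPM in the wild type. LURP1, required for basal resistance to an oomycete, was at 1.34 and 7.59 CPM, 1.14 and 0.395 CPM and 6.0 and 0.465 CPM, respectively. AED1, an apoplastic protein gene named for its dependence on EDS1, was at 1.49 and 13.6, 1.17 and 0.987, and 4.65 and 1.61 CPM. All 3 were highest in homozygous replicate 2 and next highest in wild-type replicate 1, and both heterozygous libraries were the lowest for ACD6 and AED1. DIR1, of the same list, had another order. It was lowest in homozygous replicate 2 (22.6 CPM) and highest in wild-type replicate 1 (34.8 CPM), with a log2 difference of -0.30 ± 0.20 (SE) between homozygous and wild-type siliques. AZI1 was at 0 in all 6 libraries.

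Of the defence WRKY factors, 8 of 8 tested were higher in homozygous than in wild-type siliques (median 0.23) and 8 of 8 lower in heterozygous than in wild-type siliques (median -0.40), and none was called. WRKY54, the close relative of WRKY70, was at 3.51 and 7.74 CPM in the homozygotes, 2.34 and 2.17 CPM in the heterozygotes and 8.59 and 1.54 CPM in the wild type, the order of libraries nearly that of WRKY70. WRKY33, a regulator of phytoalexin synthesis, was at 3.63 and 7.65 CPM in homozygous and at 3.08 to 3.76 CPM in the other 4 libraries.

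The remaining pathway lists had medians nearer 0 than the synthesis (0.27), output (0.38) and defence WRKY (0.23) lists. EDS1 partners and helper receptors had a median of 0.05 (5 higher, 2 lower), NPR1 relatives and TGA factors 0.00 (7 higher, 6 lower), pattern-triggered immunity genes 0.09 (6 higher, 3 lower) and negative regulators -0.04 (2 higher, 4 lower) for homozygous minus wild type. NIMIN-2, an NPR1-interacting protein gene, had the largest of these differences among the named genes, 0.87 ± 0.38 (SE). The flagellin receptor gene FLS2 was at -0.24 ± 0.15 (SE).

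**Figure D4:**
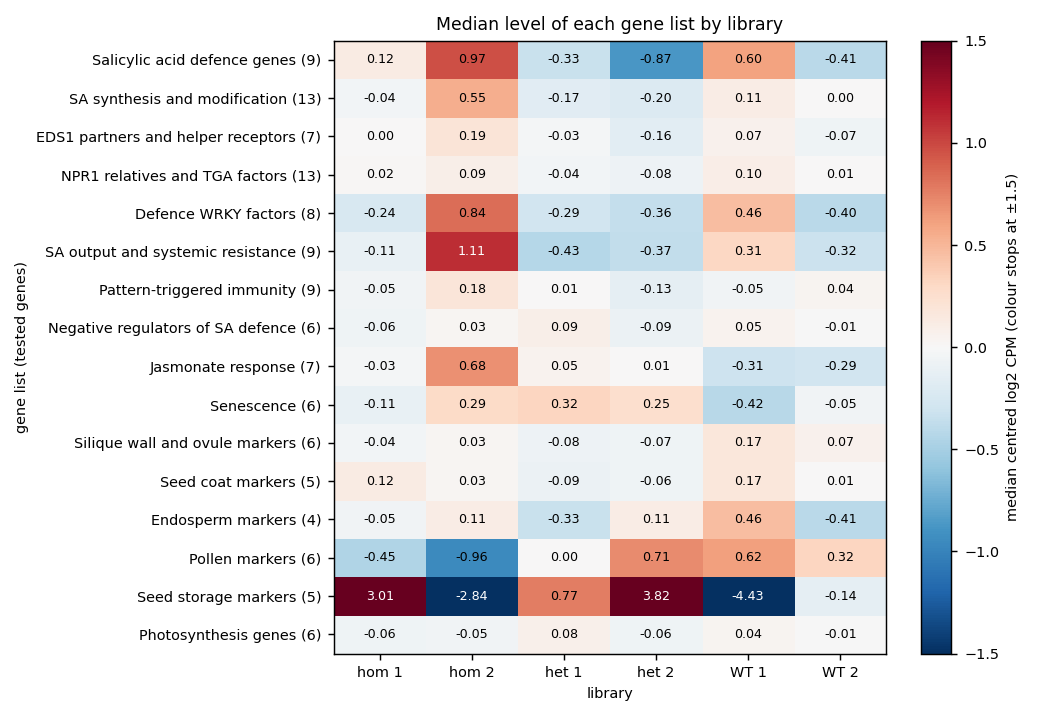
Median of log2 CPM over the tested genes of each list (rows, number tested in brackets), each gene centred on its mean over the 6 libraries (columns; colour stops at ±1.5, numbers are the values). The salicylic acid defence genes, the output genes and the defence WRKY factors are highest in homozygous replicate 2 (0.97, 1.11 and 0.84) and next in wild-type replicate 1 (0.60, 0.31 and 0.46), the libraries in which seed storage genes are lowest (-2.84 and -4.43).

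Markers of seed maturation also differed between these libraries. The 6 seed storage genes summed to 81.7 and 2.70 CPM in the homozygotes, 34.8 and 186 CPM in the heterozygotes and 4.32 and 19.9 CPM in the wild type, so homozygous replicate 2 and wild-type replicate 1 were lowest, and no storage gene was at 0 in all libraries. The 5 seed coat markers summed to 409 CPM in homozygous replicate 2 and 307 CPM in wild-type replicate 1, and to 531 to 598 CPM in the other 4. Of these, TT10, a laccase gene of the seed coat, had 184 and 64.0 CPM in the former libraries and 333 to 382 CPM in the latter. The median centred log2 CPM of the list was 0.03 and 0.17 in those libraries and -0.09 to 0.12 in the others. The endosperm list summed to 31.3 and 36.4 CPM in the same 2 libraries and to 18.8 to 25.8 CPM in the others. FWA (17.9 and 21.7 CPM) and PHE1 (10.2 CPM in both) held most of that sum, while AGL62 and MINI3 were at 1.35 and 1.69 CPM in homozygous replicate 2, within the range of the other libraries. The list median was 0.11 in homozygous replicate 2, as in heterozygous replicate 2, and 0.46 in wild-type replicate 1. Pollen markers did not follow that order, at 73.8 CPM in homozygous replicate 2 and 182 CPM in wild-type replicate 1. Photosynthesis genes had medians between -0.06 and 0.08 in every library. The share of structural RNA was 4.37% and 3.04% in those 2 libraries and 3.63% to 8.13% in the others. The part of tissue age or make-up in the levels of the defence genes was not tested.

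The genes most like PR1, PR2 and PCC1 across the 6 libraries were found by the root mean square difference of centred log2 CPM among 19850 tested genes of mean log2 CPM 0 or more (19849 for PCC1 itself). For PR2 they were LURP1 (1.26), AED1 (1.30), the jacalin-related lectin gene JAL23 (1.38), AT1G35710 (1.41) and AT5G41750 (1.45). For PR1 they were JAL23 (1.18), the xyloglucan endotransglucosylase gene XTH19 (1.23), AT1G14250 (1.27), AT5G02170 (1.38) and AT1G30700 (1.41). JAL23 reached 92.2 CPM in homozygous replicate 2 and 6.62 to 16.5 CPM in the others.

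For PCC1 the nearest were its neighbour AT3G22235 (0.298), AT2G25510 (0.339), the NAC transcription factor gene NAC036 (0.496), AT5G59670 (0.557) and AT1G19960 (0.562). These distances were smaller, but a distance also grows with the spread of the gene itself. The pooled SD of log2 CPM within genotypes was 0.621 for PCC1, 2.61 for PR1 and 2.65 for PR2. Closeness can therefore not be compared between the 3 genes, and PR1 was at 0 counts in most libraries. AT2G25510 was at 28.3 and 43.0 CPM in the homozygotes, 7.70 and 6.09 CPM in the heterozygotes and 55.1 and 12.7 CPM in the wild type, again lowest in both heterozygous libraries. NAC036 was at 3.15 and 3.41 CPM, 0.827 and 1.47 CPM and 3.03 and 1.29 CPM, respectively.

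The sRNA libraries were read at the 500 bp windows that overlap each gene, since AGO3 binds sRNA. Reads were few: total sRNA held 1 (PR1) to 48 (PR5) reads per gene, 0.0248 to 1.19 RPM, a unit of reads-per-million of the library. The AGO3 immunoprecipitate held 4 (PR2) to 55 (PAD4) reads. PCC1 had 37 AGO3 and 6 control reads, 4.25 times the control at equal depth (exact binomial 95% interval 1.78 to 12.3). Of its AGO3 reads 32 lay in 1 window on chromosome 3 (7846001 to 7846500, TAIR10), which held 0 control and 9 total reads. SID2 was next at 1.32 times the control (interval 0.779 to 2.29).

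Ratios were under 1 for 8 of the 10 genes, with the interval wholly under 1 for 6. These were PR1 (0.0115, 0.00418 to 0.0252), FRK1 (0.115, 0.0348 to 0.299), WRKY70 (0.162, 0.0648 to 0.357), PAD4 (0.498, 0.346 to 0.715), EDS1 (0.56, 0.357 to 0.872) and PR5 (0.585, 0.395 to 0.865). The intervals of PR2 (0.551, 0.109 to 2.56) and NPR1 (0.689, 0.345 to 1.37) spanned 1. The PR1 value came from 1 window on chromosome 2 (6242001 to 6242500) with 356 control, 0 AGO3 and 0 total reads. Single windows also held most control reads of PR5 (28178501 to 28179000, 55 control and 27 AGO3 reads) and PAD4 (19431501 to 19432000, 68 and 39). Their other windows held 5 control reads or fewer each, so the ratios of PR5 and PAD4 do not describe the whole gene. For WRKY70, 1 window (20909001 to 20909500) held 22 of the 34 control reads and 0 AGO3 reads, so its ratio too leans on 1 window. Within 1000 bp of FRK1, a window on chromosome 2 (8330001 to 8330500) held 175 AGO3, 0 control and 6 total reads. Flanking windows of PCC1 on chromosome 3 held more reads. These were 1354 AGO3, 1153 control and 4344 total reads (7845001 to 7845500), and 534, 291 and 304 reads (7847501 to 7848000). The AGO3 to control ratio, with 1 RPM added to each, was 0.813 and 1.24 there and 5.71 in the FRK1 window. With 1 library per condition these ratios have no replicate check, and the intervals cover counting error only. The same counts over all genes were not made, so the 8 and 6 of 10 genes are not read as particular to this set.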

How the data were processed

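The mRNA table held estimated counts per gene as deposited, not scaled to depth; 7.88% of its 205572 values were not whole. The sRNA table held deposited read counts per 500 bp window. The submitters' processing notes name HISAT2, featureCounts, Bowtie and TAIR10; versions, the strand setting and the treatment of multi-mapping reads are not stated in these sources, so antisense or overlapping genes could not be told apart.

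Estimated counts were rounded. edgeR 4.0.16 (limma 3.58.1, R 4.3.3) kept 22702 of 34262 rows (filterByExpr, minimum count 10). Its quasi-likelihood test with TMM scaling was fitted to the 6 libraries by genotype, with 3 residual degrees of freedom, and adjusted over all tested genes. SE is the log2 difference over the root of F. DESeq2 1.42.0 was the alternative tool. P-values would measure the spread between 2 samples per genotype. The genes, the lists (genes of the pathway and of tissues) and the settings were chosen with earlier results of these data known. At most 4 genes were named per list, among genes of mean log2 CPM 0 or more. They were taken by size of the difference between homozygous and wild type. Genes named beyond that rule (AZI1, AT3G48080, GL1, EXP7, SAG12) were chosen after their values were seen. Names and gene positions came from a RefSeq table of assembly TAIR10.1, matching all 10 genes; it was used to place genes at windows, and printed coordinates are those of the sRNA table, counted from 1. The script was tested on simulated data. Tables and figures were made in Python 3.11.15 with pandas 2.3.3, scipy 1.17.1, numpy 2.4.6 and matplotlib 3.10.9. The sRNA totals were 37189850 reads for AGO3, 25613847 for the control and 40262802 for total sRNA.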

Additional observations from a re-analysis of the deposited data

How the results depend on the processing

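Among all tested genes, edgeR's 0 calls for homozygous minus wild type became 4 with no filter on low counts, 76 with DESeq2, 54 with homozygous replicate 2 and wild-type replicate 1 both left out, and 0 to 3 when each library was left out. For heterozygous minus wild type they became 18 (DESeq2), 22 (both left out) and 0 to 4, and for homozygous minus heterozygous 23, 5 and 0 to 1. Of the salicylic acid genes, PCC1 was the 1 gene called for homozygous minus heterozygous with DESeq2. In that comparison edgeR also called PCC1 in some fits that left libraries out. Those fits kept 1 library in at least 1 genotype, so their calls are not read as support. Over all alternatives its log2 difference was 2.28 to 2.61 in that comparison and -2.62 to -1.14 for heterozygous minus wild type.

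The labels do not say that replicate numbers pair the samples, and same-numbered homozygous and wild-type libraries deviated in opposite directions (correlation across genes -0.343; -0.0381 and -0.0986 in the other comparisons). The replicate block called 0 genes in each comparison. The crossed pairing, chosen after seeing the data, called 136 genes for homozygous minus wild type, 1 of them PR2.

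Leaving out libraries changed the sign of the log2 difference in 6 of 9 genes for homozygous minus wild type, 6 of 9 for heterozygous minus wild type and 2 of 9 for homozygous minus heterozygous; no other setting did. The cause was not tested. PR1 and FRK1, at 0 to 30 counts, are limited by depth.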

Other observations

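Jasmonate, the hormone of responses to wounding and chewing insects, often acts against salicylic acid. Of 7 tested jasmonate response genes 7 were higher in homozygous than in wild-type siliques (median log2 difference 0.61), beside 51.7% of all tested genes. None was called by edgeR, nor by DESeq2 where it gave an adjusted p. In edgeR 3 had an unadjusted p under 0.05, beside 1293 of the 22702 tested genes. VSP2, a vegetative storage protein gene, stood at 869 and 2168 CPM in the homozygotes, 1008 and 587 CPM in the heterozygotes and 359 and 478 CPM in the wild type. LOX2, a lipoxygenase of jasmonate synthesis, stood at 795 and 1236 CPM, 763 and 637 CPM and 700 and 631 CPM, respectively. Homozygous replicate 2 was thus the highest library for both, as for PR2, while wild-type replicate 1, the second highest for PR2, was low for VSP2.

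Of 6 senescence genes 5 were higher and 1 lower in homozygous than in wild-type siliques (median 0.42), and 5 higher and 1 lower in heterozygous than in wild-type siliques (0.44). Of all tested genes 51.7% and 49.4% were higher. None of the 6 was called, and 0 and 2 had an unadjusted p under 0.05 in edgeR, beside 1293 and 1006 of the 22702 tested genes. Their summed level was 43.4 and 43.1 CPM in the homozygotes, 50.0 and 63.5 CPM in the heterozygotes and 27.9 and 39.5 CPM in the wild type. SAG12 held 25.4 CPM of the sum in heterozygous replicate 2, and 1.23 to 4.85 CPM in the other libraries. The median centred log2 CPM of the list was 0.32 in heterozygous replicate 1 and 0.25 in heterozygous replicate 2.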
